A study of Arabidopsis thaliana with 48 samples.

Results

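Wild-type systemic leaves were compared between 30 min and 8 min after high light was given to local leaves. The comparison used 6 of the 48 RNA-seq libraries of the series: 3 labelled Col systemic 30 min and 3 labelled Col systemic 8 min, taken by column name and not by any measured value. The plants were Arabidopsis thaliana of the wild type Col-0 (Col), 4 weeks old, grown on soil in days of 10 h light and 14 h dark. Local leaves are labelled as high light stress, whereas systemic leaves are labelled as untreated. The study's design text describes each group as 3 repeats made from 20 plants. Both groups of 3 libraries therefore held untreated leaves of wild-type plants whose other leaves had been lit, and they differed in the minutes since the light was turned on. The 2 comparisons set beside this interval used the 6 Col local libraries at 30 and 8 min, from leaves in the high light, and the 6 systemic libraries of the myb30 knockout at 30 and 8 min. MYB30 is an R2R3-MYB transcription factor.

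A leaf in excess light sends reactive oxygen, calcium and electrical signals through the veins to leaves that were not lit, and these leaves then change their own transcript levels within minutes. Transcripts of early stress regulators, such as CBF and ERF transcription factors, are known to rise and decay quickly after almost any disturbance of a plant. Jasmonate, made from plastid fatty acids, is a wound hormone whose pathway switches on its own repressors, the JAZ proteins. Leaves in low light or darkness are known to raise genes that respond to sugar shortage.

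The 6 libraries held 75721462 to 84906906 reads counted in genes. Values are deposited normalised read counts, that is, reads divided by a size factor per library. Within a group the libraries correlated at 0.9886 to 0.9937 on the log2 scale and between the groups at 0.9794 to 0.9901. In the 3 systemic libraries titled Col 30 min, as in the 3 local ones, the time field of the labels reads 0 min. The titles were followed. Of 511 genes called between 30 and 8 min in myb30 systemic leaves, whose titles and time fields match, 482 (94.3%) moved in the same direction in Col. Of the 511, 360 fell, and for a gene that peaked at 8 min the direction cannot tell 30 min from 0 min. CBF2 had 63.7 to 166 normalised reads in libraries labelled Col systemic 0 min and 67.5 to 115 in those titled 30 min. At 8 min CBF2 had 648 to 1153. MYB30 had 734, 754 and 701 normalised reads at 30 min and 1039, 848 and 981 at 8 min in Col, against 469 to 543 at 30 min and 451 to 550 at 8 min in the libraries labelled myb30, so reads of the gene were still counted in the knockout. The transcript AT2G06995 separated the genotypes, with 148 to 195 normalised reads in the 6 Col systemic libraries against 9.29 to 32.7 in the 6 of myb30. At 0 min a library labelled Col systemic had 21.9 normalised reads of AT2G06995 and a library labelled myb30 systemic had 124.9, the reverse of their labels. The 0 min libraries were left out of the fit for that reason and because others of them were judged to stand apart. An alternative used all 48. In the main fit the 36 libraries at 2, 8 and 30 min were fitted together. The repeats are pools of plants, so p-values measure the spread between pools. In bulk leaf RNA, fewer cells of a type and less RNA per cell cannot be told apart.

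The summed levels of defining leaf markers overlapped between the times, in part only narrowly. The 4 mesophyll markers summed to 2681470 to 3019690 normalised reads at 30 min and 2782360 to 2863410 at 8 min. The 6 guard cell markers summed to 5298 to 5815 at 30 min and 4910 to 5440 at 8 min, and none of them passed the test. The epidermal factor ATML1, with a step of -0.31 ± 0.08 (log2, SE) and an adjusted p of 0.0135, was the only marker of the 9 cell type and senescence lists that did, and it lost the call without 8 min replicate 3 or 30 min replicate 1. The 3 xylem markers summed to 2038 to 3151 normalised reads at 30 min and 1294 to 2132 at 8 min, with a median step of 0.49 and no member called. All 3 were highest in replicate 1 at 30 min and in replicate 3 at 8 min. The senescence protease SAG12 was listed at 0 in all 6 libraries.

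Between 8 and 30 min, 1686 of 19578 tested genes changed in Col systemic leaves (8.61%): 782 rose (3.99%) and 904 fell (4.62%), by limma with Benjamini-Hochberg adjusted p under 0.05. The step of a gene is its mean log2(value + 1) at 30 min minus that at 8 min, given with its standard error (SE, n = 3 and 3). The SE takes each gene's spread from all 12 groups fitted, not from these 6 libraries alone. Rising genes had a median step of 0.57 and falling genes of -0.40, and the median of all genes was -0.01. A step of at least 1 was reached by 185 rising genes and of at most -1 by 88 falling genes. Among rising genes, replicate 1 was the highest of the 30 min libraries for 61.5% of them and replicate 3 the lowest for 59.2%. Without the 8 min replicate 1, 8 min replicate 2, 30 min replicate 1 or 30 min replicate 2, the count was 869, 946, 883 or 939. Groups that did not overlap, 3 libraries against 3, were seen for 27.2% of all tested genes (12.9% higher and 14.3% lower at 30 min).

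The 10 largest rises included OPR3, LOX4 and CYP94C1 of jasmonate metabolism and the transcription factors BHLH92, CEJ1, RD26 and WRKY18. OPR3, the reductase that makes the jasmonate precursor in peroxisomes, had 42413, 28162 and 19063 normalised reads at 30 min, against 2848, 2465 and 8238 at 8 min. All 3 libraries at 30 min were above all 3 at 8 min, as the choice of these 10 genes required. The 8 min replicate 3 was the highest of its group. Its step was 2.87 ± 0.84 (adjusted p = 0.0311). CYP94C1, which oxidises the active jasmonate conjugate, had 2701, 1054 and 883 normalised reads at 30 min, against 126, 76.3 and 326 at 8 min (3.21 ± 0.94, adjusted p = 0.0302). The same order of libraries was seen for OCT6, an organic cation transporter gene, with 1296, 528 and 455 normalised reads at 30 min and 46, 28.4 and 161 at 8 min (3.48 ± 1.09, adjusted p = 0.0441). BHLH92, a bHLH transcription factor, had 198, 63.9 and 37.7 normalised reads at 30 min and was nearly absent at 8 min, with 7.21, 0.978 and 2.84 (4.32 ± 1.36, adjusted p = 0.0454).

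The other 6 of the 10 largest rises were AT1G11185, a non-coding RNA, the DREB-type repressor CEJ1, the lipoxygenase LOX4, the NAC factor RD26, WRKY18 and YUC9. RD26, a NAC factor of dehydration and abscisic acid responses, had 4320, 3236 and 3386 normalised reads at 30 min, against 426, 504 and 884 at 8 min (2.65 ± 0.53, adjusted p = 0.00198). YUC9, an enzyme of auxin synthesis, had 25.2, 57.7 and 116 normalised reads at 30 min, against 9.01, 5.87 and 5.68 at 8 min (2.87 ± 0.46, adjusted p = 0.000194). YUC9 was low at every time, with a mean of 7.35 normalised reads at 2 min. WRKY18 had 6233, 2561 and 1551 normalised reads at 30 min, against 477, 289 and 732 at 8 min (2.64 ± 0.72, adjusted p = 0.0198). Of the 10 genes, RD26 and YUC9 kept the call with each of the 6 libraries left out, and the other 8 each lost it without the 8 min replicate 1, 8 min replicate 2, 30 min replicate 1 or 30 min replicate 2.

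The 10 largest falls included the transcription factors CBF1, CBF2 and ERF104 and the touch genes TCH4 and CML23. CBF2, a transcription factor of the cold response, had 67.5, 82.5 and 115 normalised reads at 30 min, against 1153, 648 and 747 at 8 min. The groups were far apart, and the 30 min values were also below the 2 min mean of 192. Its step was -3.24 ± 0.37 (adjusted p = 1.6e-06). DIC2, a mitochondrial dicarboxylate carrier, had 449, 326 and 244 normalised reads at 30 min, against 4059, 1828 and 1879 at 8 min (-2.87 ± 0.51, adjusted p = 0.000579). TCH4, a touch-induced xyloglucan enzyme of the cell wall, had 938, 677 and 400 normalised reads at 30 min, against 6343, 2682 and 3083 at 8 min (-2.56 ± 0.52, adjusted p = 0.00201). In DIC2 and TCH4 the 8 min replicate 1 stood well above the other 2 libraries of its group. The other members of the 10 largest falls were PHI-1, SAUR48 (AT3G09870), CBF1, ERF104, AT3G24750, the calmodulin-like gene CML23 and the deadenylase gene CAF1a. AT3G24750 shares 202 bases with a gene on the other strand, and the strand of counting is not given in the sources used here. Of these 10 genes, 8 kept the call with each library left out. PHI-1 lost it without the 8 min replicate 1, 30 min replicate 1 or 30 min replicate 3, and CAF1a without the 8 min replicate 1.

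**Figure D1:**
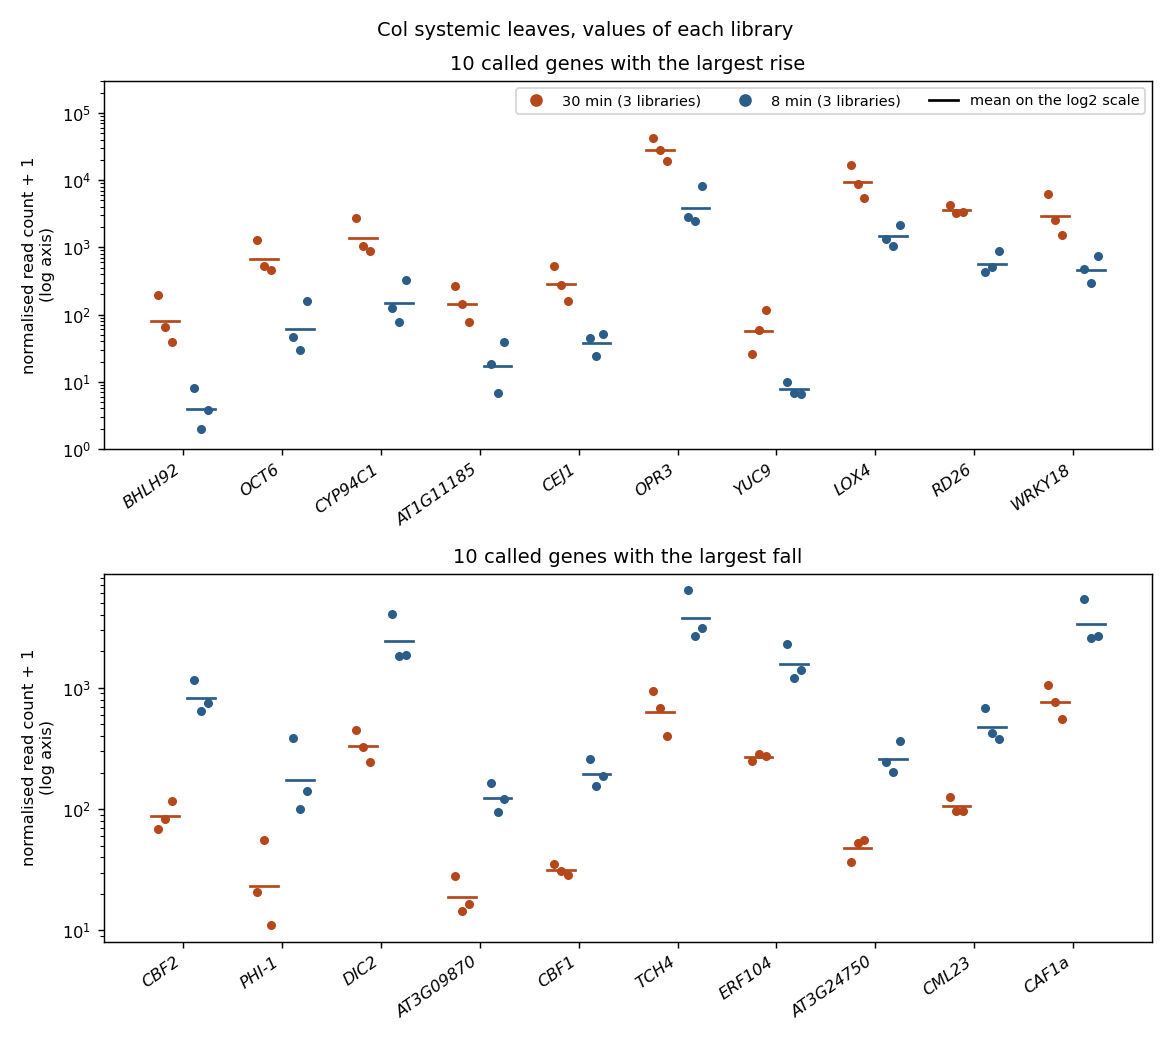
Normalised read count plus 1 (log axis) of the 10 called genes with the largest rise (upper panel) and the 10 with the largest fall (lower panel), with 3 libraries at 30 min on the left and 3 at 8 min on the right of each gene, and bars at the mean on the log2 scale. No gene's groups overlap, because genes with overlapping groups were left out when these genes were chosen. Among the rising genes the 30 min replicate 1 (left point) is the highest for 9 of 10, YUC9 being the exception.

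The promoters of CBF2, JAZ2 and TPS11 are printed as examples. CBF2 had the largest fall of the named genes, and JAZ2 and TPS11 rose. These promoters do not stand for all genes that fell or rose. Each is the 250 bases before the annotated start in the RefSeq TAIR10.1 assembly, 5′ to 3′ on the gene's strand, with matches to 7 motifs, searched on both strands, in capitals. The G-box is CACGTG, and the rapid stress response element is CGCGTT. The evening element is AAAATATCT. The dehydration-responsive element is NCCGAC with A or G at its first base. The W-box is TTGACN with C or T at its last base. The sugar-linked motif is TATCCA, and the I-box of light-regulated genes is GATAAG.
CBF2 (chr4:13016236-13016485, minus strand): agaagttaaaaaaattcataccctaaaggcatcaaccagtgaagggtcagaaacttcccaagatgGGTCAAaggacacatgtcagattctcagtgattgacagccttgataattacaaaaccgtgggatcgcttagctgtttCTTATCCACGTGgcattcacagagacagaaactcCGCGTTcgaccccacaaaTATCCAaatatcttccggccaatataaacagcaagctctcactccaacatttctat
JAZ2 (chr1:28150447-28150696, minus strand): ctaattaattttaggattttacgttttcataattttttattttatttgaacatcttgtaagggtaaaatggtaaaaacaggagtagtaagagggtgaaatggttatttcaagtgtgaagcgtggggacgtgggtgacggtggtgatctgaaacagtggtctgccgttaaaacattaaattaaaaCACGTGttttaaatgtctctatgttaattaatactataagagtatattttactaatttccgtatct
TPS11 (chr2:8108648-8108897, plus strand): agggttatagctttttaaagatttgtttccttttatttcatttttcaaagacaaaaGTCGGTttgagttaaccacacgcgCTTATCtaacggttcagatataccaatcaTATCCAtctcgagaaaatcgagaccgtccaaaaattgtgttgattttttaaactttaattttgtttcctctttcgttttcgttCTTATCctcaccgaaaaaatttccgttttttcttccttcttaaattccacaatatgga
In CBF2 the motifs from left to right are a W-box, an I-box overlapping TATCCA and a G-box, the rapid stress response element and a further TATCCA. JAZ2, a jasmonate repressor that rose, holds a G-box from -66 to -61, the letters that MYC2-type factors bind. TPS11, a trehalose-phosphate synthase-like gene that rose, holds a dehydration-responsive element, an I-box, a TATCCA and a further I-box. Among other promoters searched in this way, those of OPR3, ERF104 and CAF1a held no match. CBF1 held a TATCCA, TCH4 and BBX32 a W-box, and LOX3 a W-box and an evening element. Over promoters of this length, a G-box was present in 125 of 773 rising genes (16.2%), in 5.97% of 904 falling genes and in 7.45% of 19448 tested genes. The rapid stress response element was present in 5.56% of rising genes, 1.88% of falling genes and 2.80% of tested genes. A match is a description of letters and not of a bound site.

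Part of the jasmonate synthesis genes rose. Of 13 members tested, 5 rose (OPR3, LOX4, LOX3, OPCL1 and ACX1) and none fell, with a median step of 1.29 against -0.01 over all genes. In 12 of 13 members all 30 min libraries were above all 8 min libraries (background 12.9%). LOX3, a 13-lipoxygenase at the entry of the pathway, had 32687, 18516 and 13390 normalised reads at 30 min, against 2698, 2092 and 6137 at 8 min (2.62 ± 0.74, adjusted p = 0.025). OPCL1, a ligase that starts the shortening of the precursor's side chain, had 32881, 19690 and 12442 normalised reads at 30 min, against 4582, 2684 and 7076 at 8 min (2.18 ± 0.62, adjusted p = 0.0251). ACX1, the oxidase that follows it, had 10623, 10596 and 12262 normalised reads at 30 min, against 6008, 6173 and 8164 at 8 min (0.73 ± 0.21, adjusted p = 0.0304). The middle enzymes did not pass the test. AOS, the allene oxide synthase, had 54698, 50892 and 51459 normalised reads at 30 min, against 21404, 22486 and 43377 at 8 min, with a step of 0.93 ± 0.36 and an adjusted p of 0.114. LOX2, the most highly counted lipoxygenase of the list, overlapped between the groups, with 75019, 106843 and 131809 normalised reads at 30 min and 34962, 41772 and 121520 at 8 min (adjusted p = 0.415).

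Genes that inactivate jasmonate had a median step of 2.28 over 9 tested members, of which 2 rose and none fell. IAR3, an amidohydrolase that splits jasmonate conjugates, had 10918, 7772 and 7364 normalised reads at 30 min, against 1310, 1500 and 3586 at 8 min (2.16 ± 0.60, adjusted p = 0.0234). The other member that rose was CYP94C1, described above. ILL6, a related amidohydrolase, did not overlap between the groups and missed the threshold, with 5652, 4543 and 4695 normalised reads at 30 min and 562, 672 and 2773 at 8 min (2.28 ± 0.81, adjusted p = 0.0804).

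JAZ repressors, which bind MYC factors and are destroyed when jasmonate is sensed, had a median step of 1.98 over 13 members. Of these, 5 rose (JAZ2, JAZ6, JAZ9, JAZ3 and JAZ12) and none fell. JAZ2 had 13019, 8599 and 6566 normalised reads at 30 min, against 1506, 1214 and 3181 at 8 min (2.33 ± 0.62, adjusted p = 0.0168). JAZ9 was the most highly counted, with 56220, 40508 and 30897 normalised reads at 30 min and 10196, 9595 and 18165 at 8 min (1.77 ± 0.47, adjusted p = 0.0168). JAZ12 moved least among the 5, with 5138, 4904 and 4426 normalised reads at 30 min and 2648, 2655 and 3267 at 8 min (0.76 ± 0.16, adjusted p = 0.00315). It shares 211 bases with a gene on the other strand. JAZ7 and JAZ10 had larger steps, 3.96 ± 1.47 and 3.01 ± 1.39, with spreads that left adjusted p at 0.0985 and 0.202. JAZ10 had 2324, 1154 and 1475 normalised reads at 30 min, against 55, 168 and 796 at 8 min. Of the 13 promoters, 5 held a G-box, against 7.45% of all, as did 6 of 18 CBF and ERF and 0 of 11 zinc finger repressor promoters. JAZ4 and JAZ11, with steps of 0.02 and -0.12, did not pass the test.

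The spread in these 3 lists lay with single libraries. The 8 min replicate 3 was the highest of its group in 12 of 13 synthesis genes, 9 of 9 turnover genes and 13 of 13 JAZ genes. In Col local leaves the 8 min replicate 3 was also the highest for 13 of 13, 9 of 9 and 12 of 13, with OPR3 at 17681 normalised reads there, against 2497 and 1787 in the other local libraries of that time. The 30 min systemic replicate 1 was the highest of its group in 10 of 13, 5 of 9 and 11 of 13. Without the 8 min replicate 3, 8 synthesis, 5 turnover and 7 JAZ genes rose. With the compared groups only in the fit, 6 synthesis, 3 turnover and 9 JAZ genes rose. Without the 8 min replicate 1, 8 min replicate 2, 30 min replicate 1 or 30 min replicate 2, no synthesis or turnover gene, IAR3 included, and 1 or 2 JAZ genes passed the test. The 3 xylem markers were highest in the same systemic libraries of each time. JAZ12 kept the call with each library left out. The part of these libraries in the result was not tested.

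Of 11 jasmonate-linked factors and wound outputs, 2 rose and MYC4 fell, with a median of 0.84. MYC4, a bHLH activator of jasmonate and glucosinolate genes, had 2397, 2146 and 2317 normalised reads at 30 min, against 3899, 4082 and 3606 at 8 min (-0.76 ± 0.12, adjusted p = 0.000201). The groups did not overlap, and replicates lay close together at both times. JAM1 and JAM2, bHLH repressors of the same responses, rose. JAM1 had 7259, 5217 and 3789 normalised reads at 30 min, against 1991, 1809 and 2262 at 8 min (1.38 ± 0.35, adjusted p = 0.0135). JAM2 had 2106, 1766 and 1446 normalised reads at 30 min, against 934, 940 and 1077 at 8 min (0.84 ± 0.20, adjusted p = 0.00722). JAM1 lost the call without 8 min replicate 2 or 30 min replicate 1, and JAM2 without 30 min replicate 1. MYC3 overlapped between the groups (0.23 ± 0.11, adjusted p = 0.25). The wound-response outputs VSP1, VSP2, TAT3 and CORI3 overlapped, and VSP2 ran from 1378 to 13813 normalised reads among the 8 min libraries alone. None of 5 tested genes of terpene and volatile synthesis was called (background 8.61%), and they too varied widely within groups. The terpene synthase TPS04 (AT1G61120) had 274, 586 and 1667 normalised reads at 30 min and 10.8, 491 and 955 at 8 min.

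**Figure D2:**
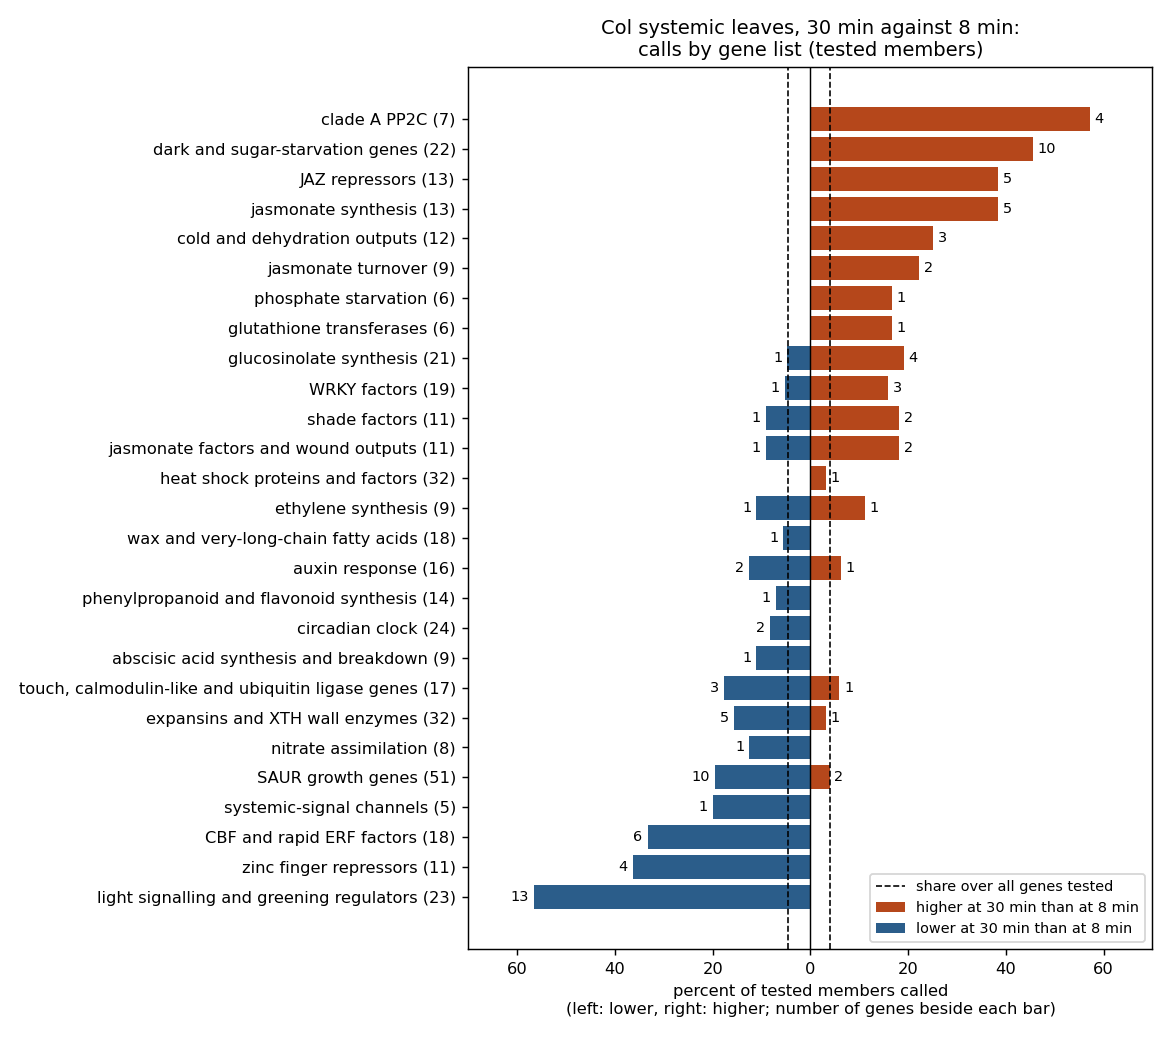
Percent of the tested members of each gene list that were called between 30 and 8 min in Col systemic leaves (right, higher at 30 min; left, lower at 30 min), with the number of genes beside each bar, the number tested in brackets and dashed lines at the shares over all genes, 3.99% and 4.62%. Light signalling genes have 13 of 23 members lower and dark genes 10 of 22 members higher.

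Of 18 tested CBF and rapid ERF factors 6 fell and none rose by limma, with a median step of -0.30. With edgeR 1 member was called higher, with DESeq2 or quantile normalization 2, and without 30 min replicate 3 there were 3. With all 48 libraries in the fit 3 members fell. CBF1, CBF2 and CBF3 are neighbouring genes of like sequence whose reads could be split between copies. CBF1 had 34.2, 29.9 and 27.6 normalised reads at 30 min, against 257, 155 and 187 at 8 min (-2.64 ± 0.46, adjusted p = 0.000426). CBF3 had 86.4, 88.7 and 217 at 30 min, against 380, 316 and 572 at 8 min (-1.78 ± 0.39, adjusted p = 0.00446). ERF104, a factor of ethylene and immune responses, had 250, 281 and 272 normalised reads at 30 min, against 2288, 1208 and 1406 at 8 min (-2.55 ± 0.56, adjusted p = 0.00418). ERF5, a related factor, had 228, 186 and 162 at 30 min, against 806, 388 and 548 at 8 min (-1.55 ± 0.38, adjusted p = 0.00891). Not every early factor of the list was lower at 30 min. ERF2 had 5834, 3559 and 1930 normalised reads at 30 min, against 832, 307 and 1255 at 8 min, and missed the threshold (2.32 ± 0.75, adjusted p = 0.0501). The 8 min replicate 1 was the highest of its group in 14 of 18 members. Without it 4 members fell, ERF5 and DREB26 losing the call, and CBF1, CBF2, CBF3 and ERF104 kept the call with each library left out.

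Of 11 zinc finger repressors 4 fell (ZAT10, SZF1, ZAT6 and AT2G28200) and none rose by limma, with a median of -0.98. With edgeR, a pseudocount of 8 or all 48 libraries 1 member was called higher, and with all 48 libraries 1 fell. ZAT10, a C2H2 repressor induced by light and oxidants, had 686, 542 and 363 normalised reads at 30 min, against 4272, 1361 and 1971 at 8 min (-2.13 ± 0.58, adjusted p = 0.0188). ZAT6 had 275, 270 and 289 normalised reads at 30 min, against 933, 531 and 690 at 8 min (-1.33 ± 0.32, adjusted p = 0.00861). SZF1, a CCCH protein of salt responses, had 4225, 3156 and 2361 at 30 min, against 13041, 6311 and 7156 at 8 min (-1.41 ± 0.40, adjusted p = 0.0255). ZAT12, a marker of oxidative stress, did not overlap between the groups, with 186, 106 and 103 normalised reads at 30 min and 451, 216 and 268 at 8 min (adjusted p = 0.12). The 8 min replicate 1 was the highest of its group in 9 of 11 members. Without it 1 member fell, AT2G28200, and without 30 min replicate 2 or 30 min replicate 3 there were 2, ZAT6 and AT2G28200. The part of these libraries in the result was not tested.

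Of 17 tested members of the touch, calmodulin-like and ubiquitin ligase list, 3 fell (background 4.62%): TCH4, CML23 and the deadenylase gene CAF1a. Only TCH3 rose, 1 of 17, near the share over all genes (3.99%). TCH3, a calmodulin-like protein, had 17382, 13892 and 6886 normalised reads at 30 min, against 6322, 3756 and 3883 at 8 min (1.39 ± 0.36, adjusted p = 0.0152). It shares 827 bases with a gene on the other strand and lost the call without 8 min replicate 2, 8 min replicate 3, 30 min replicate 1 or 30 min replicate 2. Among 19 WRKY factors, WRKY18, WRKY15 and WRKY25 rose and WRKY11 fell, and with 8 min replicate 1, 8 min replicate 2, 30 min replicate 1 or 30 min replicate 2 left out none rose. WRKY33, a factor of defence against fungi, overlapped between the groups, with 3054, 2623 and 2253 normalised reads at 30 min and 4920, 2853 and 3321 at 8 min. ACS6, a rate-limiting enzyme of ethylene synthesis, had 1682, 1768 and 1190 normalised reads at 30 min, against 9035, 4720 and 4722 at 8 min (-1.94 ± 0.35, adjusted p = 0.000715). ACO4, which makes ethylene from the product of ACS enzymes, was higher at 30 min (0.36 ± 0.10, adjusted p = 0.0191), although the groups overlapped, and lost the call without 8 min replicate 1, 8 min replicate 2, 30 min replicate 1 or 30 min replicate 2. CYP707A3, which breaks down abscisic acid, had 213, 209 and 133 normalised reads at 30 min, against 1504, 534 and 623 at 8 min (-2.13 ± 0.49, adjusted p = 0.00599), and lost the call without 8 min replicate 1. NCED3, the rate-limiting enzyme of abscisic acid synthesis, did not overlap between the groups, with 2563, 2630 and 2917 normalised reads at 30 min and 2104, 2003 and 1981 at 8 min (0.41 ± 0.16, adjusted p = 0.123). With the compared groups only in the fit, 1 gene of abscisic acid synthesis and breakdown was called higher.

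**Figure D3:**
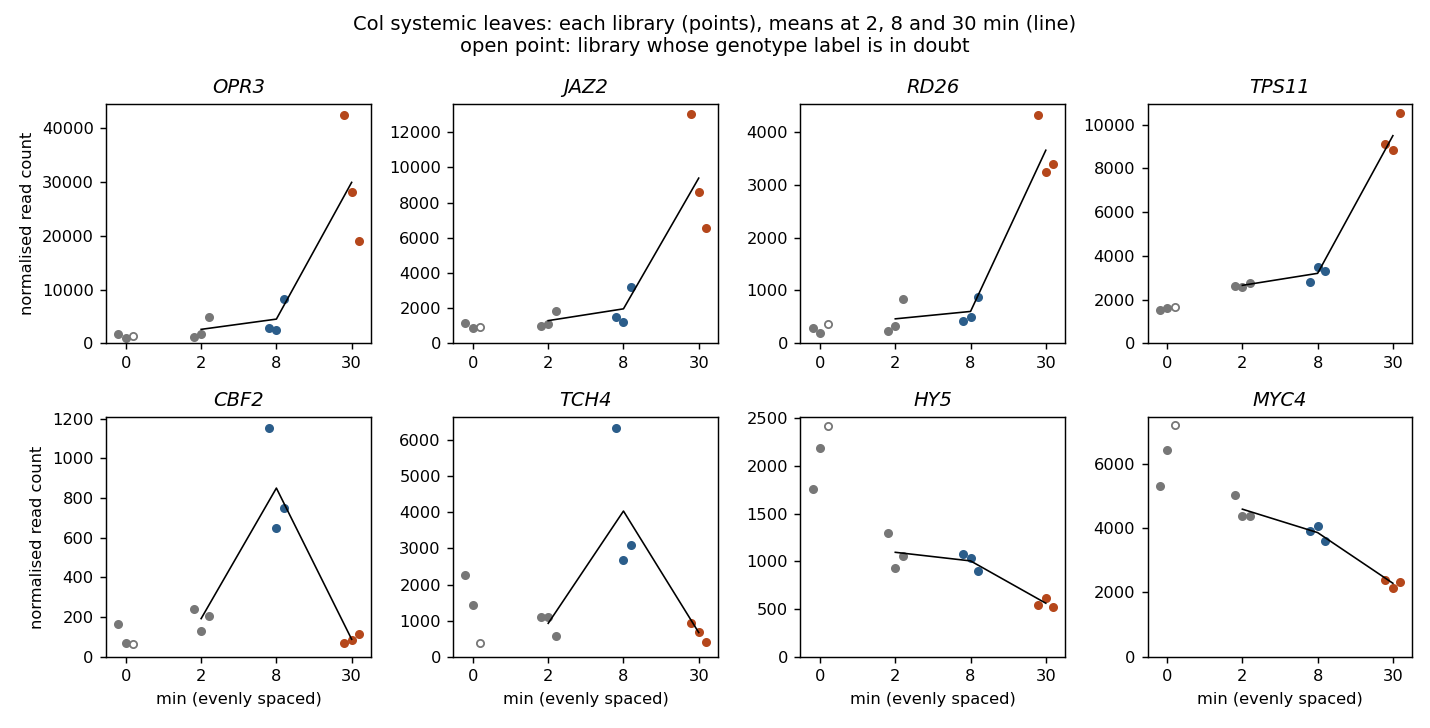
Normalised read counts (linear axis from 0) of 8 genes in every Col systemic library at 0, 2, 8 and 30 min (evenly spaced), with lines through the means at 2, 8 and 30 min and an open point for the 0 min library whose genotype label is in doubt. OPR3, JAZ2, RD26 and TPS11 are highest at 30 min, CBF2 and TCH4 at 8 min, and HY5 and MYC4 are lowest at 30 min.

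The clade A PP2C proteins block the hormone's kinases until the hormone and its receptors bind them, and their own genes are induced by it. Of 7 tested members, 4 rose (HAI1, PP2CA, ABI1 and HAB2) and none fell, with a median of 0.46. HAI1 had 1143, 1474 and 2265 normalised reads at 30 min, against 305, 442 and 399 at 8 min (2.05 ± 0.39, adjusted p = 0.00104). ABI1 had 5686, 6031 and 7277 at 30 min, against 4346, 4331 and 5104 at 8 min (0.46 ± 0.11, adjusted p = 0.00805). The 30 min replicate 3 was the highest of its group in 7 of 7. Without it, or without 8 min replicate 1, 1 member rose, without 30 min replicate 1 there were 2 and without 8 min replicate 2 or 30 min replicate 2 there were 3, and HAI1 kept the call with each library left out. Of 12 cold and dehydration genes RD26, ERD10 and COR47 rose. ERD10, a dehydrin, had 43817, 32946 and 24195 normalised reads at 30 min, against 11224, 8603 and 14240 at 8 min (1.56 ± 0.26, adjusted p = 0.000237). COR47, a related dehydrin, had 25100, 19215 and 17708 at 30 min, against 9569, 8146 and 12514 at 8 min (1.04 ± 0.18, adjusted p = 0.000486). RD29A and COR15A overlapped between the groups, and RD29A had 18338, 18426 and 22825 normalised reads at 30 min and 11342, 11496 and 19933 at 8 min (0.52 ± 0.23, adjusted p = 0.169).

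Of 23 tested regulators of light signalling and greening, 13 fell and none rose, with a median of -0.40, and in 17 of them all 30 min libraries were below all 8 min libraries (background 14.3%). HY5, the bZIP factor that carries the light signal in seedlings and leaves, had 540, 621 and 523 normalised reads at 30 min, against 1080, 1037 and 895 at 8 min (-0.84 ± 0.21, adjusted p = 0.0115). Its homologue HYH had 1470, 1530 and 1273 at 30 min, against 2510, 2193 and 2006 at 8 min (-0.65 ± 0.18, adjusted p = 0.0207). Replicates were close together, and the groups were apart for both. BBX32, a B-box protein that acts against HY5 and BBX21, had 412, 488 and 424 normalised reads at 30 min, against 2248, 1247 and 1053 at 8 min (-1.70 ± 0.23, adjusted p = 2.16e-05). The GATA factors GNC and CGA1, which promote chloroplast growth, fell too. GNC had 1408, 1289 and 1454 normalised reads at 30 min, against 3226, 3220 and 2776 at 8 min (-1.15 ± 0.13, adjusted p = 2.47e-06). CGA1 had 248, 243 and 261 at 30 min, against 882, 813 and 742 at 8 min (-1.69 ± 0.18, adjusted p = 8.06e-07). BBX28 fell less and with little spread, with 4141, 4245 and 4429 normalised reads at 30 min and 6229, 6182 and 6151 at 8 min (-0.54 ± 0.04, adjusted p = 1.64e-08). ELIP1, an early light-induced chloroplast protein, had 405, 326 and 322 at 30 min, against 737, 668 and 563 at 8 min (-0.90 ± 0.20, adjusted p = 0.00493). The sigma factors SIG1 and SIG5, the greening factors GLK1 and GLK2 and BBX21 did not pass the test. With each library left out, 11 to 13 members fell. HY5 lost the call without 8 min replicate 1, and HYH without 8 min replicate 1, 8 min replicate 2, 30 min replicate 1 or 30 min replicate 3. A W-box was present in 12 of the 23 promoters, against 27.97% of all. It was also present in 7 of 11 zinc finger repressor promoters and in 3 of 22 promoters of dark and sugar-starvation genes.

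Of 22 tested genes of dark and sugar-starvation responses 10 rose and none fell, with a median of 0.64. In 15 of them all 30 min libraries were above all 8 min libraries (background 12.9%), and in 2 they were below (background 14.3%). TPS11 and its relatives TPS8, TPS9 and TPS10 (AT1G60140) are trehalose-phosphate synthase-like proteins whose transcripts are known to rise when sugar is short. TPS11 had 9133, 8837 and 10505 normalised reads at 30 min, against 2797, 3491 and 3323 at 8 min (1.57 ± 0.16, adjusted p = 3.18e-07). TPS8 had 13454, 12620 and 13056 at 30 min, against 6245, 7751 and 6758 at 8 min (0.92 ± 0.16, adjusted p = 0.000439). Replicates of these genes lay within a narrow band at both times. TPS9 had 983, 834 and 856 normalised reads at 30 min, against 443, 412 and 377 at 8 min (1.12 ± 0.17, adjusted p = 7.48e-05). ASN1, an asparagine synthetase known as a dark-induced gene, had 2719, 2945 and 3540 at 30 min, against 1030, 1453 and 1451 at 8 min (1.23 ± 0.29, adjusted p = 0.00775). DIN10, a raffinose synthase-like gene, had 2049, 2270 and 2778 at 30 min, against 1133, 1496 and 873 at 8 min (1.04 ± 0.30, adjusted p = 0.0294). In all 3 the 30 min libraries were above those at 8 min. AKINBETA1, a subunit of the SnRK1 energy-sensing kinase, rose by 0.80 ± 0.17 (adjusted p = 0.00315). BAM9, a catalytically inactive beta-amylase family member, was lower in all 3 libraries at 30 min, with 3443, 3772 and 3112 normalised reads there and 7139, 7600 and 4325 at 8 min (-0.85 ± 0.33, adjusted p = 0.118). The count of rising members was 5 without 8 min replicate 1 and 6 without 8 min replicate 3, 30 min replicate 2 or 30 min replicate 3. The 30 min replicate 3 was the highest of its group in 14 of the 22, and the part of these libraries was not tested. TPS8, TPS9, TPS10, TPS11 and AKINBETA1 kept the call with each library left out. The I-box was present in 10 of the 22 promoters and TATCCA in 8, against 12.38% and 14.25% of all. Neither share was particular to this list. TATCCA was present in 8 of 23 light regulator and 6 of 18 CBF and ERF promoters, but in 0 of 13 jasmonate synthesis promoters. An I-box was present in 6 of 13 JAZ promoters, but in 2 of 23 light regulator promoters.

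No structural gene of photosynthesis on the lists passed the test. Of 18 nuclear antenna genes, 4 Rubisco small subunit genes and 10 chlorophyll synthesis genes none was called (limma; background 8.61%). With the compared groups only in the fit, 1 chlorophyll synthesis gene was called higher. The antenna genes had a median step of 0.10. In 9 of the 18 all 30 min libraries were above all 8 min libraries (background 12.9%), and in 1 they were below (14.3%). LHCB1.1 had 658113, 711760 and 694569 normalised reads at 30 min, against 626764, 624059 and 644751 at 8 min (0.12 ± 0.07, adjusted p = 0.291). RBCS1A, a Rubisco small subunit gene, had 1203320, 1455110 and 1401860 at 30 min and 1393130, 1349240 and 1323700 at 8 min. In the circadian clock list, 2 of 24 members fell, PRR9 (-0.45 ± 0.10, adjusted p = 0.00493) and EPR1 (-0.52 ± 0.16, adjusted p = 0.0391, lost without 4 of the 6 libraries), and the core genes CCA1 and LHY overlapped between the groups.

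Of 32 tested heat shock genes 1 rose by limma, a share near that over all genes (3.99%), and none fell (4.62%). The gene was MBF1C, a coactivator of heat responses, with 1046, 1358 and 1369 normalised reads at 30 min and 607, 661 and 580 at 8 min (1.02 ± 0.25, adjusted p = 0.00973). The list's median step was 0.34, and 28 of 32 steps were above 0. In 7 members all 30 min libraries were above all 8 min libraries (background 12.9%), and in 1 they were below (14.3%). With the replicate block and the compared groups only 4 members rose, and without replicate number 3 none did. With edgeR or DESeq2 1 member was called lower. HSFA2, the heat-induced heat shock factor, had 613, 1300 and 1081 normalised reads at 30 min, against 295, 551 and 194 at 8 min (1.59 ± 0.53, adjusted p = 0.0612). HSP101, a disaggregase, had 1158, 1605 and 1580 at 30 min, and 1247, 1462 and 800 at 8 min. The 2 groups of HSP101 values overlapped. None of 18 salicylate and immune genes, 11 ROS enzymes or 5 mitochondrial retrograde genes was called by limma (background 8.61%). With so few members, no call is close to that share. DESeq2 called 1 ROS enzyme higher, as did limma without 30 min replicate 3. With the compared groups only in the fit, 1 salicylate and immune gene was higher. RBOHD, the NADPH oxidase that carries the reactive oxygen wave, had 6935, 5734 and 3697 normalised reads at 30 min, and 3589, 3086 and 3793 at 8 min (0.60 ± 0.23, adjusted p = 0.117). Among 5 channels of systemic signals, the glutamate receptor-like gene GLR3.2 fell (-0.36 ± 0.07, adjusted p = 0.00259).

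More growth genes fell than rose. Of 51 tested SAUR genes, which encode small auxin-induced proteins of cell expansion, 10 fell and 2 rose, with a median of -0.24. AT4G38860 fell, with 3723, 3962 and 4844 normalised reads at 30 min and 6966, 8717 and 7013 at 8 min (-0.86 ± 0.14, adjusted p = 0.000243). Of the 2 that rose, AT4G12410 had 34.2, 14.4 and 25.7 normalised reads at 30 min, against 2.7, 4.89 and 8.52 at 8 min (2.04 ± 0.46, adjusted p = 0.00535), and lost the call without 8 min replicate 1. SAUR19 had 193, 218 and 232 at 30 min, against 102, 134 and 103 at 8 min (0.92 ± 0.26, adjusted p = 0.0262), a call lost without 5 of the 6 libraries. SAUR48 had 27, 13.4 and 15.6 normalised reads at 30 min, against 164, 92.9 and 121 at 8 min, the largest fall of the list (-2.71 ± 0.54, adjusted p = 0.00181). SAUR genes lie in clusters of near copies, and reads could be split between them. Of 32 tested expansins and XTH wall enzymes 5 fell and 1 rose. TCH4, a xyloglucan enzyme of the cell wall that fell, is counted with the touch genes and not here. XTH31 had 10376, 10839 and 9367 normalised reads at 30 min, against 16883, 18096 and 15354 at 8 min (-0.72 ± 0.08, adjusted p = 1.6e-06). EXPA16, an expansin, rose, with 800, 684 and 838 at 30 min and 392, 363 and 379 at 8 min (1.03 ± 0.30, adjusted p = 0.0289), and lost the call without any 1 of the 6 libraries. With a library left out, 5 to 9 SAUR genes fell, with 5 without 8 min replicate 1 or 30 min replicate 1 and 6 without 30 min replicate 2. The wall enzymes that fell were 2 to 5, with 2 without 8 min replicate 2 and 3 without 8 min replicate 1 or any 30 min library. ATHB2, a homeobox gene of the shade response, rose, with 2187, 2215 and 1963 normalised reads at 30 min and 1343, 1369 and 1290 at 8 min (0.67 ± 0.17, adjusted p = 0.0131), and lost the call without 30 min replicate 1 or 30 min replicate 2. PIF3 rose and BEE1 fell among the 11 shade factors, each with the call lost without 5 libraries. IAA5, an auxin repressor, had 278, 241 and 209 at 30 min, against 113, 124 and 150 at 8 min (0.91 ± 0.16, adjusted p = 0.000519). Of 16 auxin response genes it was the only one that rose, and IAA4 and the auxin exporter gene PIN7 fell. Neither fell without 8 min replicate 2, and PIN7 also lost the call without 8 min replicate 3, 30 min replicate 1 or 30 min replicate 2.

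Part of the glucosinolate genes rose. Of 21 tested members 4 rose, SOT16, CYP83B1, MYB34 and UGT74B1, and 1 fell. MYB34, an activator of indolic glucosinolate synthesis, had 5411, 4575 and 4210 normalised reads at 30 min, against 2304, 2316 and 2430 at 8 min (1.00 ± 0.22, adjusted p = 0.00455). UGT74B1, a glucosyltransferase of the core pathway, had 12094, 9412 and 7520 at 30 min, against 4910, 4274 and 5460 at 8 min (0.97 ± 0.22, adjusted p = 0.00474). MYB28, an activator of aliphatic glucosinolates, fell, with 3950, 3204 and 4271 normalised reads at 30 min and 6190, 5983 and 4808 at 8 min (-0.57 ± 0.13, adjusted p = 0.00421). The 30 min replicate 1 was the highest of its group in 20 of 21 members, and its part in the result was not tested. MYB34, UGT74B1 and MYB28 kept the call with each library left out, whereas 2 members rose without 8 min replicate 1, 8 min replicate 2, 30 min replicate 1 or 30 min replicate 2.

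The remaining lists held 1 call each or none. A single call was found among 6 phosphate starvation genes, 6 glutathione transferases and 8 nitrate assimilation genes tested. The same held for 18 wax and very-long-chain fatty acid genes and 14 phenylpropanoid and flavonoid genes. Over all genes 8.61% were called, and with so few members 1 call says little about a list. PS2, a pyrophosphatase of phosphate starvation, rose (1.36 ± 0.30, adjusted p = 0.00447), as did the glutathione transferase GSTF8 (0.57 ± 0.17, adjusted p = 0.036), which shares 516 bases with another gene. The fatty acid elongation gene KCS9 fell (-0.55 ± 0.08, adjusted p = 3.04e-05), as did the nitrate-responsive repressor LBD39 (-0.66 ± 0.11, adjusted p = 0.000335) and the flavonol activator MYB11 (-1.51 ± 0.47, adjusted p = 0.0405), which shares 495 bases with another gene. GSTF8 and MYB11 each lost the call without 4 of the 6 libraries, and MYB11 also with edgeR, DESeq2, no filter or a pseudocount of 8. By limma none of 7 reference genes and none of 5 cycling Dof factors was called (background 8.61%). With DESeq2 and without 8 min replicate 3, 1 cycling Dof factor was lower.

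The same interval in lit leaves differed in part. The question was which genes stepped differently in systemic and in local leaves of Col. The step differed for 5116 of 19578 genes (26.1%), 2427 with a higher step in systemic leaves (12.4%) and 2689 with a lower one (13.7%). Scaled to the same total per library, the step differed for 6706 genes, of which 76.4% were higher in systemic leaves, against 47.4% here, and the median of all genes was 0.20 in place of 0.01. Own steps were called for 1686 genes in systemic leaves and for 8340 (42.6%) in local leaves, where 21.4% of genes rose and 21.2% fell. Of the 782 genes that rose in systemic leaves, 428 also rose and 118 fell in local leaves. Of the 904 that fell, 384 also fell and 216 rose there.

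Of 23 light and 22 dark genes, 10 and 8 were called in opposite directions in systemic and local leaves, and 19 of each list had steps of opposite sign. Of 23 light signalling genes 18 had a lower and 3 a higher step in systemic leaves, and in local leaves 16 rose and 5 fell. HY5 averaged 561 normalised reads at 30 min and 1004 at 8 min in systemic leaves, against 8353 and 1793 in local leaves (difference of steps -3.06, adjusted p = 5.7e-09). ELIP1 had a step of -0.90 in systemic and 2.84 in local leaves (difference -3.74, adjusted p = 5.9e-11). Of 22 dark genes 15 had a higher and 4 a lower step in systemic leaves, and in local leaves 14 fell and 3 rose. TPS11 averaged 9491 normalised reads at 30 min and 3203 at 8 min in systemic leaves, against 459 and 2082 in local leaves (difference 3.76, adjusted p = 9.3e-13). Antenna genes, without a call in systemic leaves, had a higher step there than in local leaves for 11 of 18.

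Heat shock genes stood apart by their steps in local leaves, where 29 of 32 rose. In 24 of 32 the systemic step was lower, and in none higher. HSP101 averaged 1448 normalised reads at 30 min and 1170 at 8 min in systemic leaves, against 587788 and 108029 in local leaves. For jasmonate the difference was not called for any of 13 JAZ and 13 synthesis genes. JAZ2 had steps of 2.33 in systemic and 2.28 in local leaves, with a difference of 0.04 ± 0.87 (SE, adjusted p = 0.98), which does not show that the steps are equal. CBF2 fell in both, by 3.24 in systemic and 1.74 in local leaves on the log2 scale, with a difference of -1.50 (adjusted p = 0.032).

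The 5 largest higher steps in systemic leaves were those of AT3G15450, AT3G62950, BBX17, TPS11 and AT5G22920, a RING zinc finger gene. AT3G15450 had 4232, 4911 and 5586 normalised reads at 30 min and 1510, 2189 and 1679 at 8 min in systemic leaves, against 129, 136 and 147 at 30 min and 796, 1063 and 782 at 8 min in local leaves. Its direction was opposite in systemic and local leaves, and the times did not overlap in either (difference 4.12, adjusted p = 4.7e-10). The 5 largest lower steps were those of APX2, GPT2, SAUR51 (AT1G75580), AT1G21940 and FTSH6. APX2, a cytosolic ascorbate peroxidase induced by excess light, had 0.919 to 6.3 normalised reads in the 6 systemic libraries and averaged 14227 at 30 min and 149.8 at 8 min in local leaves. AT1G21940 was listed at 0 in all 6 systemic libraries and averaged 101 normalised reads at 30 min in local leaves. Its call was lost with edgeR.

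**Figure D4:**
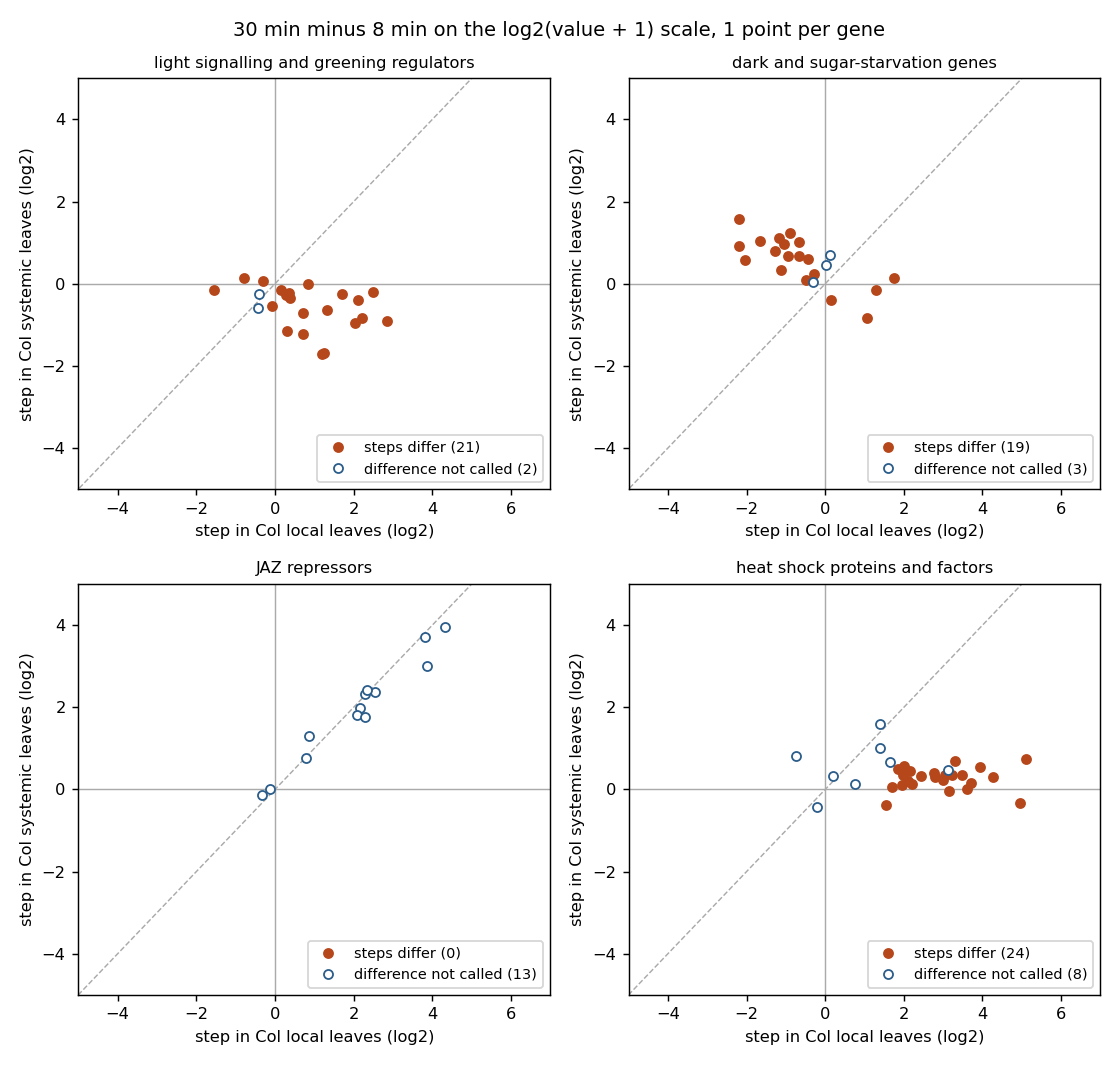
Step from 8 to 30 min (log2) in Col systemic leaves (vertical) against that in Col local leaves (horizontal), 1 point per gene of 4 lists, filled where the steps differ (adjusted p under 0.05), with the line of equal steps dashed. Light genes lie mostly below and dark genes mostly above the line, JAZ genes along it, and heat shock genes to the right, with a median systemic step of 0.34.

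The myb30 mutant differed from Col in the step of few genes by the test. The question was which genes stepped differently in Col and in myb30 systemic leaves. The step differed for 7 genes (0.0358% of 19578), 1 higher (0.00511%) and 6 lower (0.0306%) in Col, by limma. At an unadjusted p under 0.05 there were 1520, edgeR called 7 and DESeq2 65. With a library left out, the count was 2 to 22, 22 being without myb30 30 min replicate 2. Of the genes that rose in Col, 92.5% had a step above 0 in myb30, and of those that fell, 89.0% had a step below 0. The median step of the rising genes was 0.57 in Col, which chose them, and 0.27 in myb30. In myb30 no gene of the jasmonate synthesis, turnover and JAZ lists was called (background 2.61%, with 0.771% higher and 1.84% lower at 30 min), with medians of 0.56, 1.65 and 1.04. CBF2 fell to 118 normalised reads on average at 30 min, against 1312 at 8 min, in myb30 (-3.56, adjusted p = 1.7e-06), and its step did not differ between the genotypes by the test (0.32, adjusted p = 0.93).

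SPX1, a phosphate sensor and repressor of phosphate starvation responses, had the largest difference. It had 558, 893 and 1167 normalised reads at 30 min and 928, 885 and 944 at 8 min in Col, and averaged 6200 at 30 min and 1259 at 8 min in myb30. The Col groups overlapped, and myb30 rose (difference of steps, Col minus myb30, -2.44, adjusted p = 0.0032). PPCK1, a kinase of phosphoenolpyruvate carboxylase, had 1122, 1191 and 1201 normalised reads at 30 min and 1509, 1538 and 1588 at 8 min in Col, and averaged 2764 and 1497 in myb30 (difference -1.27, adjusted p = 0.0032). It shares 472 bases with a gene on the other strand. AT4G34550 had 649, 633 and 614 normalised reads at 30 min and 2069, 1877 and 2027 at 8 min in Col, and averaged 1645 and 2116 in myb30 (difference -1.23, adjusted p = 0.016). AT4G34550 fell in Col by 1.65 ± 0.15 on the log2 scale (adjusted p = 3.15e-08). The other 4 were AT4G16008 (0.78), MTO3 (-0.56), AT3G10530 (-0.50) and PAO4, a polyamine oxidase gene outside the rule for named genes (-0.42). MTO3, an S-adenosylmethionine synthetase, shares 891 bases with a gene on the other strand. SPX1 and PPCK1 kept the call with each of the 12 libraries left out, and the other named genes lost it without at least 5.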

How the data were processed

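Total RNA of Arabidopsis leaves was extracted with a Qiagen Plant RNeasy kit, per the labels' protocols. Reads were handled with cutadapt 1.18, FastQC 0.11.7, STAR 2.4.0.1 and DESeq2 1.20.0 and the TAIR10 build, per the submitters' processing notes. For the counting tool and its strand setting, nothing was given in the sources used here. The deposited signal is a table of normalised read counts for 32833 genes, made by the authors from reads per gene divided by 1 size factor per library, and 5123 genes were at 0 in every library. All 1084756 values above 0 came back as whole reads within 1e-06 of a whole number, and size factors were 0.776 to 1.17. Over the 48 libraries 70514715 to 89402096 reads were counted in genes. Depth leaves low genes imprecise, and the number of pools limits the rest.

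Here limma 3.58.1 (R 4.3.3) was fitted to log2(value + 1) over 36 libraries at 2, 8 and 30 min, with 12 group means, a mean-variance trend and genes with a mean of at least 10. Fold changes on this scale understate changes of low genes. P-values were adjusted by Benjamini-Hochberg over all 19578 genes at 0.05. Alternatives were edgeR 4.0.16 and DESeq2 1.42.0 on recovered reads, other pseudocounts, no filter, quantile and total scaling, other sets of libraries, the replicate number as a block and each library left out. The fits were tested on simulated data. Named genes were the 10 largest called rises and the 10 largest falls among genes whose groups did not overlap and whose larger group mean reached 50, up to 4 called members per list with the largest change, the called member with the largest opposite change, role members as values and 5 genes per direction for each difference. The members and lists were chosen with earlier results of these data known. Replicate numbers were not taken to pair the samples, since not every same-numbered pair of the groups compared had deviations correlating above 0.1.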

Additional observations from a re-analysis of the deposited data

Results flagged for a closer look

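The step from 8 to 30 min differed between Col systemic and Col local leaves, by a test of the difference itself, for 5116 genes. Among the named ones the difference of steps (log2, systemic minus local) was 4.12 for AT3G15450, 4.06 for AT3G62950, 3.87 for BBX17, 3.76 for TPS11 and 3.64 for AT5G22920. It was -6.49 for APX2, -5.95 for GPT2 and -5.81 for SAUR51. APX2 had -5.89 without the systemic 30 min replicate 3, GPT2 had -6.63 without the systemic 8 min replicate 1, and FTSH6 had -4.75 to -6.27 with a library left out. AT1G21940 and FTSH6 averaged 101 and 533 normalised reads in local leaves at 30 min, while both were at or near 0 in systemic leaves.

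Between Col and myb30 systemic leaves the step differed, by the same kind of test, for 7 genes. The difference (log2, Col minus myb30) was 0.78 for AT4G16008, -2.44 for SPX1, -1.27 for PPCK1, -1.23 for AT4G34550, -0.56 for MTO3 and -0.50 for AT3G10530.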

How the results depend on the processing

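None of the 127 named genes and list members called in the step of Col systemic leaves changed direction under any alternative that was run. Named genes without a call were not followed in this way. The step of Col systemic leaves had 1686 calls. It had 1071 with the replicate block and the compared groups only, 869 to 1539 with a library left out and 374 to 1389 with a replicate number left out. Other settings gave 1143 to 2232. Of 127 called named genes and list members, 19 to 54 lost the call with a library left out, 32 to 81 with a replicate number left out, 23 with the replicate block and the compared groups only, 1 with DESeq2 and 3 with edgeR. The leaf difference had 5116 calls, with 4525 to 4891 when a library and 3300 to 3636 when a replicate number was left out. The genotype difference had 7 calls. It had 3 with no filter, 12 with quantile normalization, 4 scaled to the same total, 2 with all 48 libraries, 2 with the compared groups only, 65 with DESeq2, 2 to 22 with a library and 0 to 10 with a replicate number left out. With the replicate block it had 24, and 1 with the block and the compared groups only. The cause of these shifts was not tested. Same-numbered libraries at 30 and 8 min had deviations that correlated at 0.34, 0.0013 and 0.029. Those of systemic and local libraries correlated at 0.47, 0.057 and 0.24 at 30 min and at 0.52, 0.32 and 0.59 at 8 min. At both times each systemic library correlated best with the local library of its own number, a hint of pairing from the data. For the 30 min systemic replicate 3 the lead was narrow, with 0.20 for the local replicate 2. The replicate block gave 2232 calls for the step and 5665 for the leaf difference. For the leaf difference a block per plant pool gave 6611, with no JAZ gene and 2 synthesis genes (both lower) called, and JAZ2 at 0.04 ± 0.28 (SE). Genes under the minimum mean of 10, such as MYC2 and PDF1.2, were not tested. MYC2 shares 3241 of its 3289 bases with a gene on the other strand. The strand of counting is not given, so its low count need not mean low expression.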

Other observations

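A few called genes outside the lists were chosen after their values were seen. GBF3, a G-box binding bZIP factor, had a step of 1.42, and SIS, a gene of salt responses, of 1.65. DOGT1, a brassinosteroid glucosyltransferase, had a step of -1.28 and TZP, a zinc knuckle protein of light signalling, of -0.81. Each of these 4 calls was kept with each of the 6 libraries left out. GBF3 shares 246 bases with another gene.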
